A study of Homo sapiens with 6 samples.

Results

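The ATP-binding cassette (ABC) family was examined in OVCAR5, an ovarian cancer cell line, and in OVCAR5R, its derivative with acquired resistance to the CHK1 inhibitor prexasertib (Prex). Members were taken by symbol, as every listed gene named ABC followed by a subfamily letter from A to G and a number, which gave 26 of the 12308 genes listed. Total RNA was sequenced from 3 cultures of untreated parental OVCAR5 and 3 cultures of OVCAR5R. OVCAR5R is a single derived line that was grown in rising Prex up to 3 µM, kept at 2 µM, and then held off the drug for at least 4 days before use. Both lines were grown in the same medium with serum and insulin, and the study gives OVCAR5 as p53 null and as wild type for the BRCA genes. No record used here says whether OVCAR5R came from 1 cell or from a pool, and a difference between the lines cannot be told apart from drift during long culture.

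ABC proteins bind and hydrolyze ATP through a conserved nucleotide-binding domain, and most of them use that energy to move a substrate across a membrane. A subset of plasma membrane pumps, the multidrug transporters, exports drugs and their conjugates and is known for its role in resistance to chemotherapy. Other members move lipids and sterols, or serve mitochondria, peroxisomes and lysosomes. The E and F subfamilies carry the nucleotide-binding domains without a membrane domain and act on ribosomes. A family list of 45 symbols was set beside the file. Of these, 25 were listed, made up of 6 of 9 drug efflux pumps, 6 of 18 lipid, sterol and bile salt transporters, all 4 mitochondrial transporters, 2 of 3 peroxisomal transporters, both lysosomal transporters, all 4 proteins without a membrane domain, and 1 of 5 further members. The other member was the pseudogene ABCA17P. ABCB1, ABCC2 and ABCC11 were not analysed here.

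The regions upstream of 1 annotated start each of ABCF1 and ABCG2 show how unlike such regions can be. ABCF1 was chosen because it had the highest values in OVCAR5R relative to OVCAR5 of the members that act on ribosomes. ABCG2 was chosen as the multidrug pump with the widest spread between libraries. Each run is the 250 bases upstream of the annotated gene start in RefSeq (GRCh38.p14), with GC boxes (GGGCGG on either strand) in capitals. The ABCF1 run is chr6:30571192-30571441 on the plus strand and the ABCG2 run is chr4:88231627-88231876 on the minus strand.
ABCF1: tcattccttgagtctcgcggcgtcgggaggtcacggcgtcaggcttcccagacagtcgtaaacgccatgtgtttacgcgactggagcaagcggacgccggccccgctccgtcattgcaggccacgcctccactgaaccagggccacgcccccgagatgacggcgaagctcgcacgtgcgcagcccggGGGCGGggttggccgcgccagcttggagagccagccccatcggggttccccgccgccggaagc
ABCG2: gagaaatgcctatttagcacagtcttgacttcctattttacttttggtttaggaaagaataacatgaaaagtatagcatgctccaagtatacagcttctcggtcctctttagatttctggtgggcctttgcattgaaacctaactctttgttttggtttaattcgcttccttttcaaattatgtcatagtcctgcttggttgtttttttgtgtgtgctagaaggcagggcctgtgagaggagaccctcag
The ABCF1 run was 69.6% G and C and held 1 GC box, whereas the ABCG2 run was 40.0% G and C and held none. GENCODE release 29 annotates 4 different transcript starts for ABCG2 and 7 for ABCF1, so each run is only 1 of several possible upstream regions. The ABCG2 run lies beyond the outermost of these starts, at position 88231322, and need not be the promoter in use. Which start the cells use was not tested. RefSeq promoters were matched for 20 members, and the same 250 bases were searched in each. A GC box was found in 80.0% of them, against 69.1% of those of the 9413 listed genes with a match and 42.3% of all 27305 promoters. The core of the antioxidant response element, TGACNNNGC on either strand, was found in 6 of the 20 (ABCA2, ABCA3, ABCB6, ABCC4, ABCD4 and ABCF1), or 30.0%, against 11.9% of the listed genes. These are matches of letters only, and no overlap of this motif with the GC box was scored.

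The values analyzed are normalized signals on a linear scale, not divided by gene length, and the 6 libraries held between 35800000 and 55100000 estimated reads. Every OVCAR5R library was deeper than every OVCAR5 library. The library labelled OVCAR5 replicate 2 stood apart from the other 5. On the epithelial markers EPCAM and KRT19 its values were 597 and 1341, while the other 5 libraries lay between 11.9 and 31.7 for EPCAM and between 3.09 and 10.7 for KRT19. Its VIM, a mesenchymal intermediate filament, was 190 against 1063 to 2379 in the other 5. KRT8 was at least 1031 and KRT18 at least 1108 in all 6 libraries, so keratins of simple epithelium were present throughout. They too were highest in OVCAR5 replicate 2, at 7772 and 6196, against at most 2103 and 1992 elsewhere. Over the 8 of 10 listed markers of ovarian carcinoma epithelium the summed signal was 16477 in that library and 2306 to 4242 elsewhere, and WT1 was under 1 in all 6 libraries. Of 6 mesenchymal, 4 leukocyte and 3 endothelial markers only COL1A1, VIM and CD68 were listed. Results are therefore given with all libraries and without OVCAR5 replicate 2, and the part of this library's difference in any result was not tested. In bulk RNA, fewer cells of a kind and less RNA per cell cannot be told apart.

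A total of 24 of the 26 members passed the filter (3 or more libraries at a value of 1 or higher) and were tested with limma on log2(value + 1), together with all 11766 genes that passed. With p-values adjusted over all genes by the Benjamini-Hochberg method, 0 of the 24 had an adjusted p under 0.05, beside 0.119% of all genes tested. The lowest adjusted p of a member was 0.298 (limma). At an unadjusted p under 0.05 there were 3 members, ABCC3 and ABCG1 lower and ABCF1 higher in OVCAR5R, beside 10.4% of all genes (6.25% lower and 4.14% higher), and limma's voom on the estimated reads gave 2 at this level and 0 after adjustment. The libraries of the 2 lines did not overlap for 3 members, among them ABCF1 higher and ABCC3 lower, beside 16.6% of all genes (8.4% higher and 8.18% lower). An exact two-sided permutation test of 3 against 3 libraries gives a p of 0.1 for such a gene, which is the smallest it can give. With 3 of 24 members each, both counts lie near the shares of all genes and are no result about the family. The log2 fold change (log2FC) is the mean log2(value + 1) of OVCAR5R minus that of OVCAR5. Its median was 0.10 over the 24 members and -0.01 over all genes tested, with 14 members higher and 10 lower, beside 49.2% of all genes higher. Without OVCAR5 replicate 2 these medians were 0.05 and -0.00, again with 14 members higher and 10 lower, and 2 members, ABCC3 and ABCF1, had an unadjusted p under 0.05, beside 10.8% of all genes. The members' median changed sign with the libraries used, from -0.05 without OVCAR5R replicate 3 and -0.04 without OVCAR5 replicate 3 to 0.28 without OVCAR5 replicate 1. Without OVCAR5 replicate 2, the libraries of 4 members did not overlap, among them ABCD4 and ABCF1 higher and ABCC3 lower, beside 27.4% of all genes.

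**Figure D1:**
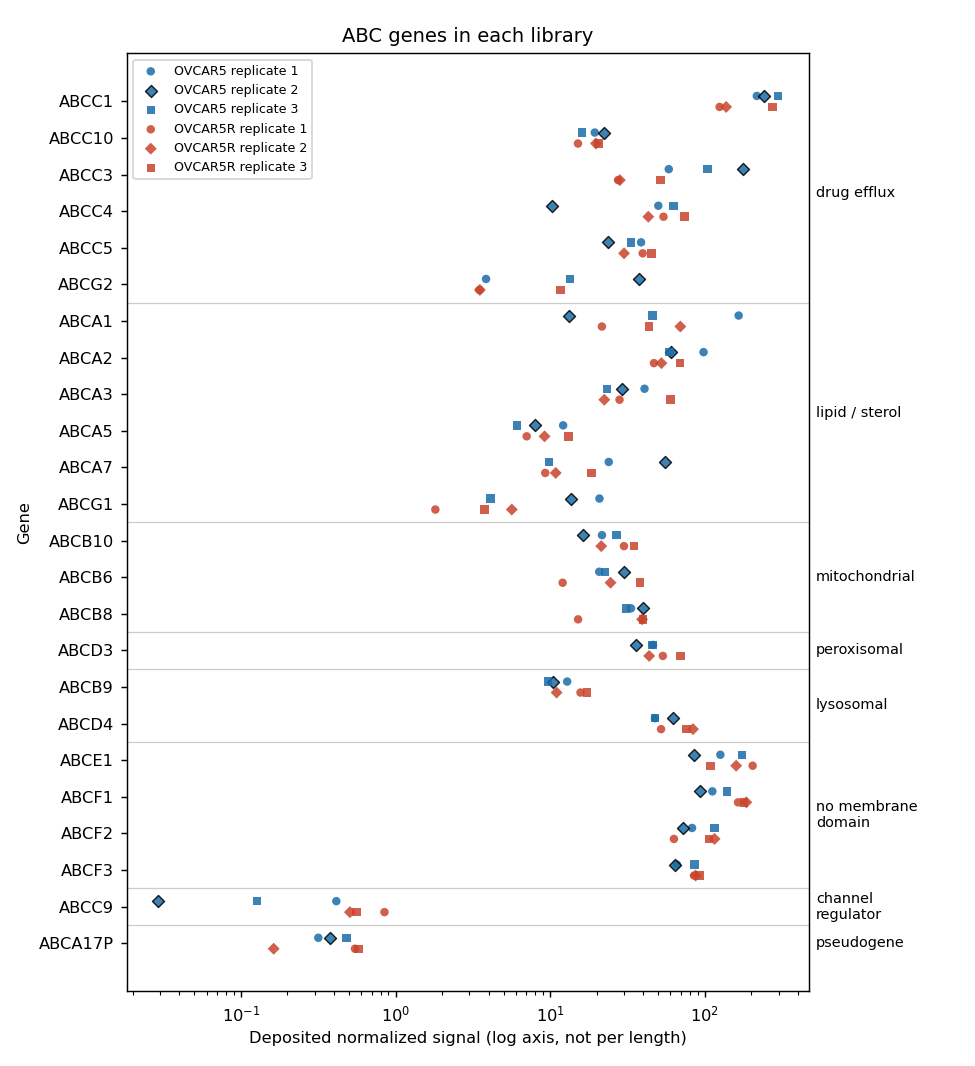
Deposited normalized signal of 24 of the 26 ABC genes (log axis, not per length) in the 3 OVCAR5 libraries (blue) and the 3 OVCAR5R libraries (red), 1 symbol per replicate, with OVCAR5 replicate 2 outlined in black and genes grouped by role. ABCC3 is the gene with all OVCAR5R values, 27.5 to 51.6, below all OVCAR5 values, 58.5 to 177, and OVCAR5 replicate 2 is the lowest library for ABCC4 and the highest for ABCG2 and ABCA7.

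The drug efflux pumps bear on whether the resistant line expresses more exporter than its parent. Among the 6 that were tested, 0 passed the adjusted threshold, beside 0.119% of all genes. In this and each role group below, 0 lies near that share and is no result about the group. On the log2 scale 4 of the pumps had a lower and 2 a higher mean in OVCAR5R, and the median log2FC was -0.32. It was -0.20 without OVCAR5 replicate 2, -0.15 without OVCAR5R replicate 1 and -0.53 without OVCAR5R replicate 3. ABCC3 (MRP3), a pump for glucuronide and bile acid conjugates, lies on chromosome 17 of GRCh38 from 50634777 to 50692252 on the plus strand. Its signal was 58.5, 177 and 104 in the parental cultures 1, 2 and 3, compared with 27.5, 28.2 and 51.6 in the resistant cultures 1, 2 and 3, the order used for every gene below. Every OVCAR5R library was below every OVCAR5 library, with OVCAR5R replicate 3 nearest to the parent. The log2FC of ABCC3 was -1.55 (SE 0.42, 95% interval -2.52 to -0.59, limma unadjusted p = 0.00590, limma adjusted p = 0.298). It was -1.16 (SE 0.36, limma adjusted p = 0.341) without OVCAR5 replicate 2, and between -1.95 and -1.16 with any library left out. The libraries of ABCC3 did not overlap without OVCAR5 replicate 2 either.

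ABCG2 (BCRP), a multidrug pump of stem and barrier cells, lies on chromosome 4 from 88090264 to 88231322 on the minus strand. It had signals of 3.85, 37.3 and 13.4 in OVCAR5 and 3.49, 3.51 and 11.6 in OVCAR5R, in replicate order. The lines overlapped, since OVCAR5 replicate 1 was close to the lower OVCAR5R libraries and OVCAR5R replicate 3 was above it. ABCG2 had a log2FC of -1.13 (SE 0.74, 95% interval -2.83 to 0.57, limma adjusted p = 0.623), and it was -0.40 without OVCAR5 replicate 2. That library held 1289 estimated reads of ABCG2 and OVCAR5 replicate 1 held 158.

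ABCC1 (MRP1), the exporter of glutathione conjugates, was the most abundant pump and lies on chromosome 16 from 15949577 to 16143074 on the plus strand. Its signal was 217, 242 and 298 in OVCAR5 and 125, 137 and 273 in OVCAR5R. OVCAR5R replicates 1 and 2 were below all 3 parental libraries and replicate 3 lay within their range. ABCC1 had a log2FC of -0.58 (SE 0.32, 95% interval -1.31 to 0.15, limma adjusted p = 0.567), or -0.60 without OVCAR5 replicate 2, and it lay between -0.93 and -0.37 with any library left out.

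ABCC4 (MRP4), which exports cyclic nucleotides and prostaglandins, had the highest log2FC of the pumps. Its signal was 50.1, 10.3 and 62.6 in OVCAR5 and 54.1, 43.1 and 74.0 in OVCAR5R. The log2FC of 0.77 (SE 0.60, 95% interval -0.62 to 2.16, limma adjusted p = 0.686) rested on OVCAR5 replicate 2, without which it was -0.01 (SE 0.27). ABCC5 (MRP5), an exporter of cyclic GMP, and ABCC10 (MRP7), a pump known for taxanes, had log2FC values of 0.26 and -0.06, and 95% intervals of -0.34 to 0.86 and of -0.60 to 0.49. Without OVCAR5 replicate 2 they were at 0.07 and 0.05, so the sign for ABCC10 turned. These intervals still allow a rise of the size of their upper bounds, so the test does not show that the pumps are equal in the lines.

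**Figure D2:**
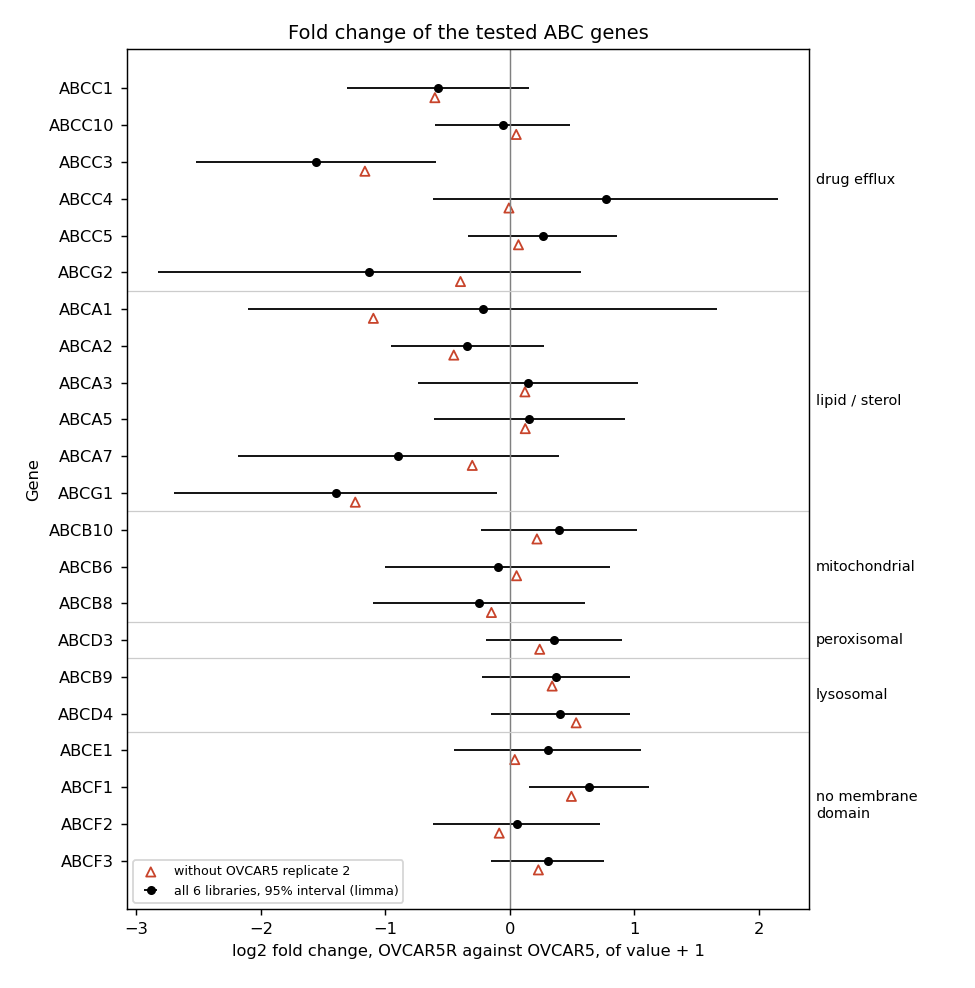
log2FC in OVCAR5R against OVCAR5 of log2(value + 1) for 22 of the 24 ABC genes tested, with points and 95% intervals from limma over all 6 libraries, triangles for the estimate without OVCAR5 replicate 2, and genes grouped by role. The intervals of ABCC3, ABCG1 and ABCF1 leave out 0 before adjustment, and the estimate for ABCC4 moves from 0.77 to -0.01 without that library.

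Several lipid and sterol transporters varied widely between cultures of the parent, with an SD on the log2 scale of 1.77 for ABCA1, 1.19 for ABCA7 and 1.08 for ABCG1 (n = 3). Of the 6 tested, 0 passed the adjusted threshold, beside 0.119% of all genes. In the mean 4 were lower and 2 higher, and the median log2FC was -0.28. It was -0.38 without OVCAR5 replicate 2 and -0.45 without OVCAR5R replicate 2, near 0 (-0.0028) without OVCAR5R replicate 1, and it turned to 0.12 without OVCAR5 replicate 1. ABCG1, which loads cholesterol onto high-density lipoprotein, lies on chromosome 21 from 42199689 to 42297244 on the plus strand. Its signal was 20.8, 13.6 and 4.11 in OVCAR5 and 1.81, 5.65 and 3.76 in OVCAR5R. OVCAR5R replicate 2 was above OVCAR5 replicate 3, so the lines overlapped at that point only. The log2FC of ABCG1 was -1.40 (SE 0.56, 95% interval -2.70 to -0.10, limma unadjusted p = 0.0379, limma adjusted p = 0.449) and -1.24 (SE 0.64, unadjusted p = 0.0902 from limma) without OVCAR5 replicate 2. The unadjusted call was also lost without OVCAR5 replicate 1 and without OVCAR5R replicate 1 or 3.

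ABCA1, the partner of ABCG1 in cholesterol export that loads lipid-poor apolipoprotein A-I, overlapped fully between the lines. Its signal was 166, 13.3 and 46.0 in OVCAR5 and 21.6, 69.5 and 43.5 in OVCAR5R, and the OVCAR5 libraries alone spanned more than the whole range of OVCAR5R. The log2FC of ABCA1 was -0.22 (SE 0.82, limma adjusted p = 0.951) and -1.10 (SE 0.61, limma adjusted p = 0.580) without OVCAR5 replicate 2. ABCA7, a phospholipid transporter, had signals of 23.9, 55.5 and 9.86 in OVCAR5 and 9.29, 10.9 and 18.5 in OVCAR5R, so OVCAR5 replicate 2 was the highest. Its log2FC was -0.89 with all libraries and -0.30 without that library. The lowest and the highest log2FC values of the other 3 were -0.34 for ABCA2, an endolysosomal lipid transporter, and 0.16 for ABCA5, which is also found in lysosomes and had signals of 12.1, 8.02 and 6.08 in OVCAR5 and 7.05, 9.19 and 13.1 in OVCAR5R. ABCA3, the lamellar body transporter of surfactant lipid, was at 0.15, and without OVCAR5 replicate 2 these log2FC values were -0.45 for ABCA2, 0.12 for ABCA5 and 0.12 for ABCA3. For ABCA3 the highest value was 60.2 in OVCAR5R replicate 3 against 22.4 to 40.8 elsewhere.

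The mitochondrial half-transporters serve heme and iron-sulfur cluster metabolism. None of the 4 passed the adjusted threshold, beside 0.119% of all genes. With all libraries 0 of them had an unadjusted p under 0.05 by limma, beside 10.4% of all genes. By the mean, 2 were higher and 2 lower in OVCAR5R. ABCB10, an inner membrane protein needed for heme synthesis, had signals of 21.6, 16.4 and 26.8 in OVCAR5 and 30.0, 21.4 and 34.7 in OVCAR5R, with a log2FC of 0.39 (SE 0.27, limma adjusted p = 0.645), or 0.22 without OVCAR5 replicate 2. The lines overlapped for ABCB10. ABCB8, an inner membrane transporter, had signals of 33.3, 39.7 and 30.8 in OVCAR5 and 15.2, 39.3 and 39.8 in OVCAR5R, and its log2FC of -0.25 (SE 0.37, limma adjusted p = 0.852) was 0.19 without OVCAR5R replicate 1 and -0.15 without OVCAR5 replicate 2. ABCB6, a porphyrin transporter, was also lowest in OVCAR5R replicate 1, at 12.0 against 20.8 to 38.1 in the other libraries, and its log2FC was -0.10, or 0.05 without OVCAR5 replicate 2. GENCODE places 54.7% of the exon bases of ABCB6 also in another gene on the same strand, so its reads may be split.

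Of the peroxisomal and lysosomal members, 0 of 4 passed the adjusted threshold, beside 0.119% of all genes. All 4 had a log2FC above 0, beside 49.2% of all genes. The median log2FC of the 2 lysosomal members was 0.39, and 0.44 without OVCAR5 replicate 2. ABCD3 (PMP70), which imports branched-chain and dicarboxylic acyl groups, had signals of 46.2, 35.9 and 45.9 in OVCAR5 and 53.6, 43.7 and 69.6 in OVCAR5R, with a log2FC of 0.36 (SE 0.24, limma adjusted p = 0.631). It was 0.24 without OVCAR5 replicate 2 and 0.19 without OVCAR5R replicate 3. OVCAR5R replicate 2 was within the range of OVCAR5 for ABCD3, and the other OVCAR5R libraries were above it.

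ABCD4, which works with LMBRD1 to release cobalamin from lysosomes, had signals of 47.6, 62.2 and 47.7 in OVCAR5 and 52.2, 83.9 and 76.3 in OVCAR5R. OVCAR5R replicate 1 was below OVCAR5 replicate 2, so the lines overlapped, and they did not without that parental library. Its log2FC was 0.41 (SE 0.24, limma adjusted p = 0.598) with all libraries and 0.53 (SE 0.25, limma unadjusted p = 0.0684) without OVCAR5 replicate 2. ABCB9, a lysosomal peptide transporter, had signals of 12.9, 10.5 and 9.68 in OVCAR5 and 15.7, 11.0 and 17.2 in OVCAR5R, with a log2FC of 0.37 (SE 0.26, limma adjusted p = 0.648), or 0.34 without OVCAR5 replicate 2. The exons of ABCB9 share 12.0% of their bases with ARL6IP4 and 12.5% with OGFOD2 on the other strand, and whether the counting used strand is not given in the sources used here.

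The 4 ABC proteins without a membrane domain were the most expressed group apart from ABCC1. All 4 had a higher mean log2 value in OVCAR5R, beside 49.2% of all genes, with a median log2FC of 0.30. None passed the adjusted threshold, beside 0.119% of all genes. Without OVCAR5 replicate 2 the median was 0.13 and 3 of the 4 were higher, and without OVCAR5 replicate 3 it was 0.49. ABCF1, a factor that binds eIF2 and ribosomes in translation initiation, lies on chromosome 6 from 30571376 to 30597179 on the plus strand, and its promoter is printed above. Its signal was 112, 93.2 and 139 in OVCAR5 and 164, 186 and 179 in OVCAR5R. All OVCAR5R values exceeded all parental values, and the OVCAR5R cultures lay close together. ABCF1 had a log2FC of 0.63 (SE 0.21, 95% interval 0.15 to 1.12, limma unadjusted p = 0.0164, limma adjusted p = 0.364) and 0.49 (SE 0.20, limma adjusted p = 0.432) without OVCAR5 replicate 2. It did not keep an unadjusted p under 0.05 without OVCAR5R replicate 2.

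ABCF3, the relative of yeast GCN20, had signals of 66.0, 64.2 and 85.7 in OVCAR5 and 85.2, 87.2 and 92.7 in OVCAR5R. Here the log2FC was 0.30 (SE 0.20, limma adjusted p = 0.621), or 0.23 without OVCAR5 replicate 2, and the lines overlapped only in that OVCAR5 replicate 3 was just above OVCAR5R replicate 1. ABCE1, the ribosome recycling factor, also had a log2FC of 0.30, which was 0.04 without OVCAR5 replicate 2. Its signal was 126, 85.2 and 174 in OVCAR5 and 204, 160 and 109 in OVCAR5R, and the lines overlapped over most of their range. ABCF2 had signals of 82.7, 72.6 and 115 in OVCAR5 and 63.2, 116 and 106 in OVCAR5R, with a log2FC of 0.06 (SE 0.29, limma adjusted p = 0.965), or -0.09 without OVCAR5 replicate 2. For ABCF2, 45.8% of the exon bases are also annotated to another gene on the same strand.

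The members that did not pass the filter were not tested in the fit above. ABCC9 (SUR2), the regulatory subunit of a potassium channel, was at 17, 1 and 5 estimated reads in OVCAR5 and 45, 28 and 30 in OVCAR5R. All OVCAR5R values of ABCC9 exceeded the parental ones, at signals of 0.507 to 0.848 against 0.029 to 0.414, and the OVCAR5R libraries were the deeper ones. The pseudogene ABCA17P was at 13, 13 and 19 estimated reads in OVCAR5 and 29, 9 and 31 in OVCAR5R, and the lines overlapped.

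Levels can be ordered between members only per length. Divided by the kilobases of all annotated exons of a gene in GENCODE release 29, the mean signal over the 6 libraries was highest for ABCF1 at 32.1 per kb, followed by ABCC1 at 28.4, ABCE1 at 22.8, ABCF2 at 22.2 and ABCF3 at 15.4. ABCC3 at 7.74 was the next. The 2 lines ranked the top differently, with ABCC1 above ABCF1 in OVCAR5 (33.3 against 25.3 per kb) and below it in OVCAR5R (23.6 against 39.0 per kb). ABCE1 and ABCF2 could not be told apart in level. They were at 20.5 and 21.6 per kb in OVCAR5 and at 25.1 and 22.8 per kb in OVCAR5R. Between libraries their signals, not per length, ranged from 85.2 to 204 and from 63.2 to 116. From ABCD4 at 7.03 to ABCA3 at 4.36 per kb there were 10 members with levels as close as their spread between libraries. Among the pumps ABCC4 stood at 5.68, ABCC5 at 3.07, ABCG2 at 2.42 and ABCC10 at 2.34 per kb. This order differed by line. ABCG2 at 3.61 was above ABCC5 at 2.79 in OVCAR5, and at 1.23 was below ABCC10 at 2.29 in OVCAR5R. In OVCAR5R, ABCC4 at 6.61 was also above ABCC3 at 3.72 per kb. The place of ABCG2 in OVCAR5 depended on OVCAR5 replicate 2. Its mean signal in that line was 18.2 with that library and 8.63 without it, while that of ABCC5 was 31.9 and 36.0. ABCA5 at 0.704 per kb was the lowest of the tested members on this measure. The divisor counts all annotated exons, 13158 bases for ABCA5 and 6121 for ABCG1, whether or not the cells use them. The order therefore rests on the annotation, and the shared exons of ABCF2 and ABCB6 given above may also affect their places.

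The members varied between cultures of the same line. The median SD of a tested member on the log2 scale was 0.34 in OVCAR5 and 0.40 in OVCAR5R, while over all genes tested it was 0.35 and 0.25. OVCAR5R replicate 1 held the lowest value of the 6 libraries for 11 of 24 members and the highest for 1, and OVCAR5R replicate 3 held the highest for 10 and the lowest for 0. OVCAR5R replicate 1 was the extreme library for 50.0% of the members, against 35.1% of all genes, and OVCAR5R replicate 3 for 41.7% against 27.6%. OVCAR5 replicate 2 was extreme for 50.0% of the members and 53.6% of all genes. Taken relative to OVCAR5, the 24 members had a median log2 value of 0.03, -0.06 and -0.06 in the parental replicates, compared with -0.25, 0.04 and 0.30 in the resistant replicates, so the resistant cultures were spread on both sides of the parent.

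**Figure D3:**
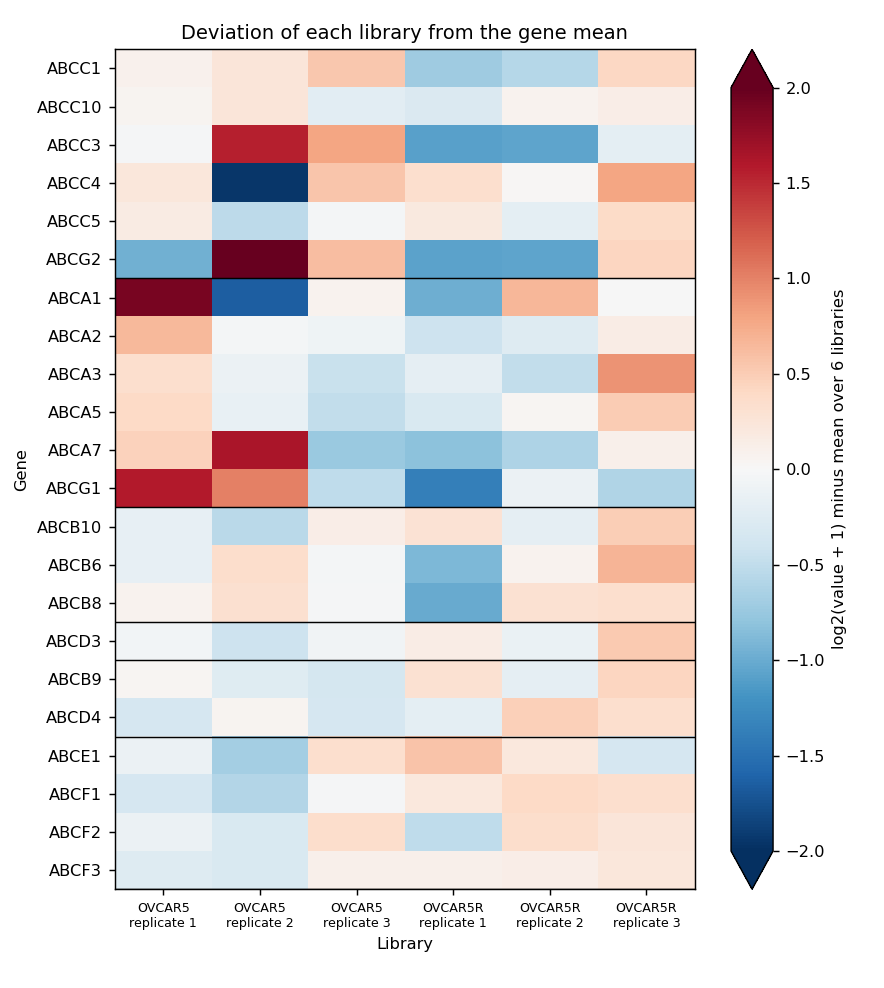
Heat map of log2(value + 1) minus the gene's mean over the 6 libraries for 22 of the 24 ABC genes tested (rows, in the order of the role groups, with lines between groups) in each library (columns), with the color scale held at 2 in either direction. OVCAR5 replicate 2 is the highest library for ABCC3, ABCG2 and ABCA7 and the lowest for ABCC4 and ABCA1, where OVCAR5 replicate 1 is as far out on the high side for ABCA1, and OVCAR5R replicate 1 has the lowest value for 10 of the genes drawn.

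The genes that neighbour the members on the chromosome were set beside them. For each tested member the median log2FC of the 29 to 209 other tested genes within 10 Mb on either side was between -0.43 (ABCG2) and 0.52 (ABCD4). For 8 of 24 members the neighbours' median was more than 0.3 from the OVCAR5 mean in at least 1 library. ABCB8 and ABCF2 lie close together on chromosome 7, from 151028422 to 151047782 and from 151212490 to 151227230. In OVCAR5R replicate 1 they were at -1.13 and -0.48 relative to the OVCAR5 mean, and their 64 neighbours had a median of -0.73. In OVCAR5R replicates 2 and 3 the median of these neighbours was 0.07 and -0.05.

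ABCG2 was at -1.63, -1.62 and -0.13 in OVCAR5R replicates 1, 2 and 3 relative to the OVCAR5 mean, while the median of its 37 neighbours on chromosome 4 was -0.71, -0.64 and 0.04. In OVCAR5 the neighbours of ABCG2 were at 0.05, -0.14 and -0.07, while ABCG2 itself was at -1.52, 1.46 and 0.05. ABCC1 was at -1.0, -0.86 and 0.13 in the OVCAR5R replicates, and its 92 neighbours on chromosome 16 were at -0.36, -0.17 and -0.03. ABCD4 was at 0.00, 0.68 and 0.54, and its 108 neighbours on chromosome 14 were at 0.38, 0.51 and 0.74. ABCE1 was at 0.72, 0.37 and -0.18, with its 38 neighbours at 0.11, -0.09 and -0.75. ABCC4 was at 0.73, 0.41 and 1.17 in the OVCAR5R replicates, and its 29 neighbours on chromosome 13 were at -0.31, -0.21 and 0.02. In OVCAR5, ABCC4 itself was at 0.62, -1.56 and 0.94, so OVCAR5 replicate 2 lowered the mean it was set against. ABCA3 was at -0.11, -0.42 and 0.97, and its 156 neighbours were at -0.47, -0.16 and 0.13. The neighbourhoods of ABCC3, ABCG1 and ABCF1 had median log2FCs of 0.13, 0.04 and -0.03, against -1.55, -1.40 and 0.63 for these genes themselves. The part of the neighbourhood in the members' values was not tested.

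**Figure D4:**
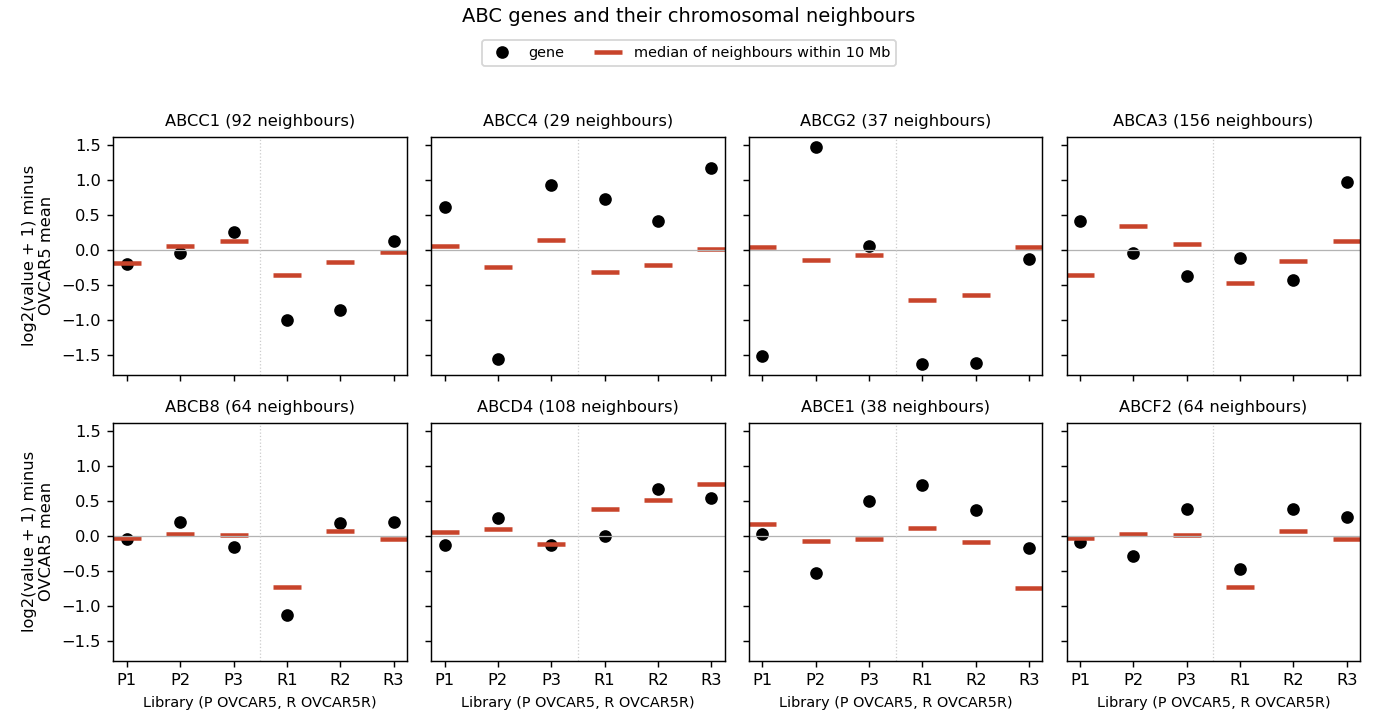
log2(value + 1) minus the OVCAR5 mean of 8 ABC genes (black points) and the median of the same measure over their neighbours within 10 Mb (red bars), in OVCAR5 replicates 1 to 3 (P1 to P3) and OVCAR5R replicates 1 to 3 (R1 to R3). ABCB8 and ABCF2 are low with their neighbours in OVCAR5R replicate 1. ABCG2 is low with its neighbours in OVCAR5R replicates 1 and 2, but also in OVCAR5 replicate 1 (-1.52), where they are at 0.05. ABCD4 shares the higher level of its neighbours in OVCAR5R replicates 2 and 3, but is at 0.00 in OVCAR5R replicate 1, where they are at 0.38. ABCC4 lies above its neighbours except in OVCAR5 replicate 2.

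Genes that work with ABC proteins or regulate them were taken from a list of 35, of which 30 were listed and tested. None had an adjusted p under 0.05 (limma), 3 had an unadjusted p under 0.05, 1 higher and 2 lower, beside 10.4% of all genes (4.14% higher and 6.25% lower), and the median log2FC was -0.06. Among the regulators of ABC transporter transcription, 5 of 6 had a lower mean in OVCAR5R, beside 50.8% of all genes, and 1 passed the unadjusted level, beside the 10.4% above. That was NR1H3, which encodes LXRα, the oxysterol receptor that drives ABCA1 and ABCG1. Its signal was 38.6, 29.9 and 26.9 in OVCAR5 and 8.36, 21.2 and 12.0 in OVCAR5R, and every OVCAR5R library was below every OVCAR5 library. Of the 6 regulators 2 were lower without overlap in this way, beside 8.18% of all genes. NR1H3 had a log2FC of -1.22 (SE 0.34, limma unadjusted p = 0.00678, limma adjusted p = 0.298), and -1.26 without OVCAR5 replicate 2.

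NR1H2, the related LXRβ gene, had a log2FC of -0.20 (-0.11 without OVCAR5 replicate 2), and NFE2L2, the gene of the oxidative stress regulator NRF2, had 0.01 (0.02 without that library). MVP, which encodes the major vault protein, had signals of 290, 415 and 357 in OVCAR5 and 92.9, 249 and 147 in OVCAR5R without overlap. Its log2FC was -1.21 (SE 0.35, limma unadjusted p = 0.00864, limma adjusted p = 0.306), and -1.09 without OVCAR5 replicate 2.

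Of the 7 genes of iron-sulfur cluster and heme synthesis, 4 had a higher and 3 a lower mean in OVCAR5R. At an unadjusted p under 0.05 (limma) there was 1, beside 10.4% of all genes. Without overlap 3 were higher, beside 8.4% of all genes, among them NFS1 (limma unadjusted p = 0.0816) and FECH (limma unadjusted p = 0.185). Over all 30 genes tested from the list of 35, 4 were higher and 3 lower without overlap, beside 8.4% and 8.18% of all genes. LMBRD1, the partner of ABCD4, had a log2FC of -0.28, or 0.03 without OVCAR5 replicate 2. The lists of peroxisomal membrane protein import (3 genes), cobalamin handling (3) and ribosome rescue and GCN2 signaling (5) each held 0 genes at an unadjusted p under 0.05. The share of all genes was 10.4%, so lists this short cannot show that a pathway is unchanged. APOE, the only lipid acceptor listed, was at 13.0 in OVCAR5 replicate 2 and at 1.01 to 4.53 elsewhere. KCNJ11, the pore subunit that pairs with sulfonylurea receptors, had signals of 0.152 to 2.69.

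TAP1 and TAP2 belong to the ABC family under other symbols and form the peptide pump of antigen presentation. TAP1 had signals of 75.2, 145 and 70.9 in OVCAR5 and 38.8, 62.3 and 77.1 in OVCAR5R, and OVCAR5 replicate 2 was the highest. For TAP1 the log2FC was -0.67 (SE 0.35, limma adjusted p = 0.541) and -0.35 without OVCAR5 replicate 2. TAP2 had a log2FC of 0.15 (SE 0.20, limma adjusted p = 0.828) with overlapping libraries, or 0.10 without OVCAR5 replicate 2. CFTR was not analysed here.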

How the data were processed

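Total RNA from triplicate cultures of OVCAR5 and OVCAR5R was sequenced. The authors deposited a normalized signal per gene and culture, stated as quartile normalized, and the submitters' processing notes name hg38. The aligner, counter, annotation and gene filter are not given in the sources used here. The deposited values are linear and move in steps of the worth of 1 estimated read, 0.0181 to 0.0290, and 65.0% to 68.2% of values under 2000 reads were whole within 0.01, so counts were not taken as recovered and voom on estimated reads was an alternative only. Steps gave 35800000 to 41300000 estimated reads in OVCAR5 and 50300000 to 55100000 in OVCAR5R. With 3 cultures per line, the spread between cultures limits precision.

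One duplicate row was dropped. Genes at 1 or higher in 3 or more libraries were tested as log2(value + 1) with limma version 3.58.1 (R version 4.3.3, eBayes with trend), two-sided, with Benjamini-Hochberg adjustment over all 11766 genes, after a check on simulated data. Fold changes of low genes are understated on this scale. Members, role groups and lists were chosen with earlier results of these data known. Members are named in full where they are ABCC1 or ABCG2, had an unadjusted p under 0.05, did not overlap, or were the extremes of a role group. A few genes that the counts include are not reported here by name or drawn. Other members, and neighbours past 0.3, were described after their values were seen. Positions and exon lengths came from GENCODE release 29 (GRCh38), which held 99.3% of symbols. Figures used matplotlib version 3.10.9.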

Additional observations from a re-analysis of the deposited data

How the results depend on the processing

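No member passed an adjusted p of 0.05 under any of the 14 alternatives (quantile normalization, a common 75th percentile, no filter, a minimum of 5, a pseudocount of 0.1, limma without trend, the replicate block, voom on estimated reads, and each library left out). The count of all genes at that level moved from 14 to 5 with the replicate block, to 0 with voom (1204 at an unadjusted p under 0.05), and to between 0 and 29 with a library left out. The fit with the block gave 4 members at an unadjusted p under 0.05, beside 11.1% of all genes, and 0 after adjustment. Across the 14 alternatives there were 2 to 4 members at this unadjusted level, beside 7.3% to 14.6% of all genes. They included ABCC1 with the block and without OVCAR5R replicate 3, ABCG2 without OVCAR5 replicate 1, and ABCA7 without OVCAR5 replicate 3. ABCD4 was included without OVCAR5R replicate 1, and ABCC9 with no filter. At that level ABCC3 was kept in all 14, ABCF1 was lost without OVCAR5R replicate 2, and ABCG1 was lost with voom and without OVCAR5 replicate 1 or 2 or OVCAR5R replicate 1 or 3. The replicate numbers are not said to pair the cultures. The correlations of same-numbered deviations were -0.00, 0.18 and -0.12, which cannot show whether they do. With a library left out, members without overlap numbered 4 to 8 of 24 (chosen after seeing the data), beside 24.3% to 33.3% of all genes. Of 182 values for 13 members named in full, 175 kept their direction. The exceptions all came with a library left out, where the lowest values were -0.058 for ABCA5, -0.0072 for ABCC4 and -0.11 for ABCF2, and the highest were 0.39, 1.24 and 0.32 in that order. ABCB8 ranged from -0.47 to 0.19. The members' median lay between -0.05 and 0.28. The causes were not tested. ABCC9 and ABCA17P had 45 or fewer estimated reads in every library.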
